A study of Sus scrofa with 6 samples.

Results

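Maternal mRNA storage and translation control was followed here through 10 listed genes, CPEB1, PATL2, YBX2, DAZL, ZAR1, ZAR1L, EIF4E1B, PABPC1L, LSM14B and DDX6. Members were taken by gene name from the deposited table of normalized abundance, which found 8 of the 10 among 17678 genes. PATL2 and DAZL were not found by name and are not analysed here. The growing oocyte makes mRNAs that it does not translate at once, packs them with RNA-binding proteins such as Y-box proteins, DEAD-box helicases and LSM14 proteins, and keeps their poly(A) tails short. During maturation and after activation, CPEB proteins bound to U-rich elements near the end of the 3′ UTR allow cytoplasmic polyadenylation, and poly(A)-binding and cap-binding proteins then set which mRNAs are translated. Because transcription is low until the embryonic genome is activated, the early cleavage embryo relies on this stored RNA.

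The samples were porcine 2-cell embryos collected at 32 h after parthenogenetic activation, so they carried no paternal genome. Mature oocytes had been injected before activation with a negative control siRNA (NC) or with pooled SIN3A siRNAs (KD), SIN3A being the scaffold of a histone deacetylase corepressor complex. Each group had 3 libraries, each pooled from 20 embryos, which hides differences between embryos. The study calls the replicates independent, but neither the labels nor the methods say that they came from separate oocyte donors or cultures, so the p values measure the spread between these samples. RNA was selected on its poly(A) tail, so levels describe polyadenylated mRNA, and neither tail length nor translation was measured.

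Values are read estimates that the authors scaled between libraries, called normalized values below. The spacing of low values put the depth at about 10900000, 7800000 and 12900000 reads for NC replicates 1 to 3 and at about 11800000, 15800000 and 10200000 reads for KD replicates 1 to 3. The injection target SIN3A had normalized values of 37361, 33964 and 32404 in NC and of 3271, 1079 and 4173 in KD replicates 1 to 3. Every KD library lay below every NC library, as the labels state, with a log2 fold change of -3.81 (adjusted p = 8.45e-06 by limma). Without limma's variance trend that adjusted p was 0.423, and over the alternatives run it ranged from 3.19e-11 to 0.469.

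In the comparison of KD with NC embryos, which asks whether loss of SIN3A mRNA altered the stored-mRNA machinery, none of the 8 genes found passed the test. By limma, 0 of 8 had an adjusted p below 0.05, against 0.159% of the 11986 genes tested, and 0 of 8 had an unadjusted p below 0.05, against 4.61%. The 2 groups overlapped in all 8 genes, while they did not overlap in 9.79% of all genes tested. The log2 fold changes, on the log2(value + 1) scale, ran from -0.19 in DDX6 to 0.20 in LSM14B, with a median of 0.032 beside 0.0026 over all genes tested. The 95% intervals of the single genes all lay within -0.49 to 0.51, or 0.713 to 1.42 times the NC level. They were computed gene by gene with limma's variance trend and are not a joint bound for the 8 genes. The median standard error of the members was 0.102, against 0.174 over all genes tested. In these bulk libraries, fewer cells holding a transcript and less of it per cell cannot be told apart.

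Summed over the 8 genes, the normalized values made up 0.161% ± 0.0082 of the library total in the NC group and 0.163% ± 0.0063 in the KD group (SD, n = 3 each). The single NC libraries held 0.152%, 0.164% and 0.167%, and the KD libraries 0.162%, 0.169% and 0.157%. The lowest share was in NC replicate 1 and the highest in KD replicate 2, and the groups overlapped.

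CPEB1 (ENSSSCG00000001808) binds the cytoplasmic polyadenylation element of dormant mRNAs and acts first as a repressor and then as an activator. It is at chr7:52329054-52382408 (plus strand) in Sscrofa11.1, the build used for all positions given. The 6 libraries gave normalized values of 2480, 2533 and 2485 in NC and 2344, 2595 and 2694 in KD replicates 1 to 3. The NC libraries were nearly equal, with a coefficient of variation of 1.17%, and the KD libraries lay on both sides of them. CPEB1 had a KD to NC log2 fold change of 0.02 (standard error, SE, 0.09, 95% interval -0.16 to 0.21, adjusted p = 0.997 by limma). This value was 0.081 without KD replicate 1 and turned to -0.019 without KD replicate 3. An antisense long noncoding gene, LOC110261547, overlaps CPEB1 over 21932 bases, and since the library kit did not mark strand, reads of this pair in shared exons could not be separated.

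PABPC1L (ENSSSCG00000007382), the embryonic poly(A)-binding protein that coats lengthened tails of activated mRNAs, is at chr17:47321259-47351905 (plus strand). In NC replicates 1 to 3 it had normalized values of 1761, 2058 and 1928, and in KD replicates 1 to 3 of 2242, 2095 and 1799. KD replicates 1 and 2 lay above all NC libraries and KD replicate 3 among them. PABPC1L had a KD to NC log2 fold change of 0.09 (SE 0.10, 95% interval -0.13 to 0.31, adjusted p = 0.997 by limma), which was 0.022 without KD replicate 1, 0.032 without NC replicate 1, 0.14 without NC replicate 2 and 0.18 without KD replicate 3.

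EIF4E1B (ENSSSCG00000014052) is the oocyte form of the cap-binding protein eIF4E and is held in repressor complexes on stored mRNA. It is at chr2:81277086-81281668 (minus strand). EIF4E1B had normalized values of 3924, 4105 and 3794 in NC and 4123, 4618 and 3830 in KD replicates 1 to 3. KD replicate 2 was the highest library, KD replicate 3 lay within the NC values, and the groups overlapped. EIF4E1B had a KD to NC log2 fold change of 0.08 (SE 0.09, 95% interval -0.11 to 0.27, adjusted p = 0.997 by limma), which was 0.013 without KD replicate 2 and 0.15 without KD replicate 3.

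The next 3 genes package stored mRNA. YBX2 (ENSSSCG00000017938), the germ cell Y-box protein MSY2, coats mRNA in oocytes and stabilises it. It is at chr12:52635383-52642443 (minus strand). The YBX2 libraries had normalized values of 3924, 5096 and 5072 in NC and 4802, 4987 and 4610 in KD replicates 1 to 3. NC replicate 1 lay apart below the other 5 libraries, and all 3 KD libraries lay between NC replicates 1 and 3. The log2 fold change was 0.04 (SE 0.10, 95% interval -0.17 to 0.25, adjusted p = 0.997 by limma), and without NC replicate 1 it was -0.084.

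LSM14B (ENSSSCG00000026052), an oocyte paralog of the RAP55 protein of P-bodies, is at chr17:61553953-61566504 (plus strand). LSM14B had normalized values of 508, 527 and 543 in NC and 655, 730 and 459 in KD replicates 1 to 3. The KD libraries were far more spread than the NC libraries, with a coefficient of variation of 22.8% against 3.38%. KD replicates 1 and 2 lay above all NC values and KD replicate 3 below them. LSM14B had the highest log2 fold change of the 8 genes with all 6 libraries, 0.20 (SE 0.15, 95% interval -0.11 to 0.51, adjusted p = 0.997 by limma). It was 0.39 without KD replicate 3 (adjusted p = 0.564) and 0.060 without KD replicate 2 (adjusted p = 1), where PABPC1L was higher at 0.071. KD replicate 3 was also the highest library for 4 of the 14 cumulus and granulosa markers in the table, as NC replicate 1 was for 4 others, and the lowest for 6 of the 11 oocyte and cleavage embryo markers in the table. Other cumulus and granulosa markers, such as INHBA, were low in KD replicate 3. The summed oocyte and cleavage embryo markers were about as low in NC replicate 3 (95464) as in KD replicate 3 (95524). The part of these markers in the LSM14B values was not tested. PSMA7 overlaps LSM14B on the other strand over 132 bases, and the antisense long noncoding gene LOC106506742 does so over 292 bases.

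DDX6 (ENSSSCG00000015097), the RNA helicase that joins repressed mRNA to LSM14 and PATL proteins and to decapping factors, is at chr9:46025616-46063836 (minus strand). Normalized values of DDX6 were 379, 289 and 337 in NC and 306, 268 and 303 in KD replicates 1 to 3. NC replicate 1 was the highest and KD replicate 2 the lowest, but NC replicate 2 lay among the KD libraries. DDX6 had the lowest log2 fold change with all 6 libraries, -0.19 (SE 0.14, 95% interval -0.49 to 0.11, adjusted p = 0.997 by limma). It was -0.097 without NC replicate 1, where ZAR1 was lower, and -0.29 without NC replicate 2. The antisense gene LOC106504894 overlaps DDX6 over 3077 bases.

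ZAR1 and ZAR1L are maternal-effect proteins with a zinc finger that binds mRNA, and ZAR1 is needed for the first cleavages and for keeping maternal mRNA in the oocyte. ZAR1 (ENSSSCG00000008824) is at chr8:38386520-38391618 (plus strand). Normalized values of ZAR1 were 365, 527 and 460 in NC and 502, 438 and 402 in KD replicates 1 to 3. The NC libraries held both the lowest and the highest value and enclosed the KD libraries. ZAR1 had a KD to NC log2 fold change of 0.00022 (SE 0.14, 95% interval -0.30 to 0.30, adjusted p = 0.9999 by limma). It took either sign when single libraries were left out, from -0.14 without NC replicate 1 to 0.12 without NC replicate 2.

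ZAR1L (ENSSSCG00000034291) is at chr11:8795478-8805876 (minus strand). Normalized values of ZAR1L were 3876, 3514 and 3890 in NC and 3624, 3498 and 3477 in KD replicates 1 to 3. KD replicates 2 and 3 were the lowest libraries, but KD replicate 1 lay above NC replicate 2. The log2 fold change was -0.09 (SE 0.08, 95% interval -0.27 to 0.09, adjusted p = 0.997 by limma). The exact two-sided permutation test gave ZAR1L p = 0.2, the smallest among the 8 genes, where 3 libraries against 3 allow no p below 0.1.

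The lowest and highest values were spread over the libraries. NC replicate 1 was the lowest library for YBX2, ZAR1 and PABPC1L, and the highest for DDX6. KD replicate 3 was the lowest for LSM14B and ZAR1L and the highest for CPEB1. No library was the lowest, or the highest, for more than 3 of the 8 genes.

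To compare levels between genes, normalized values were divided by the length of the longest RefSeq mRNA, in kilobases. EIF4E1B had the highest level per kilobase, 2418 ± 95.9 (SD, n = 3) in NC embryos, and of the 10316 tested genes with a RefSeq length 1.30% were higher. YBX2 followed with 1763 ± 251, CPEB1 with 1481 ± 17.4 and ZAR1L with 1296 ± 73.5 (SD, n = 3 each), each with at most 3.67% of these genes above it. By level per kilobase, the cap-binding protein, the Y-box protein, CPEB1 and ZAR1L were among the most abundant mRNAs of the control embryos. By normalized value, 4.33% of genes lay above EIF4E1B, 3.45% above YBX2, 5.06% above ZAR1L and 8.26% above CPEB1.

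PABPC1L had 649 ± 50.6 per kilobase, ZAR1 had 305 ± 55.0, LSM14B had 205 ± 6.93 and DDX6 had 53.8 ± 7.27 (SD, n = 3 each) in NC embryos. DDX6, which is used in all cells, was the lowest of the 8 and near the middle of all genes, with 52.5% of genes above it. Over the 6 libraries, neighbours in this order had ranges that overlapped only for YBX2 with CPEB1 and for ZAR1 with LSM14B. The order depended on the length used for one pair. With the median length of each gene's RefSeq mRNAs, ZAR1L had 1692 per kilobase in NC embryos and stood above CPEB1. The RefSeq mRNA of CPEB1 holds no 3′ UTR, so its level rests on 1687 bases and would be lower with one.

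**Figure D1:**
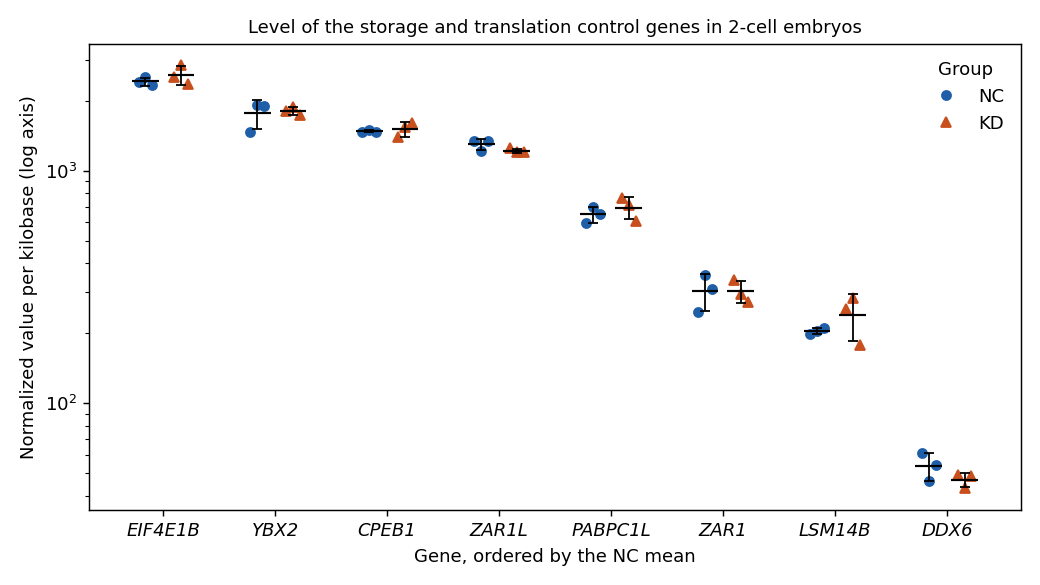
Normalized value per kilobase of the longest RefSeq mRNA, on a log axis, for the 8 genes found, with each library as a point (NC circles, KD triangles), the group mean as a horizontal bar and the SD as an error bar (n = 3 per group). EIF4E1B was the highest and DDX6 the lowest, and the groups overlapped in every gene.

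The 13 listed paralogs of CPEB1, PATL2, YBX2, DAZL, EIF4E1B, PABPC1L and LSM14B, most of them used in many cell types, were read from the same fit. By limma, 0 of 13 had an adjusted p below 0.05, against 0.159% of all genes tested, and 1 was higher and 1 lower in KD at an unadjusted p below 0.05, 15.4% of the list against 4.61% of all genes tested. Their median log2 fold change was 0.057, beside 0.0026 over all genes tested. The pair at the unadjusted threshold was LSM14A and PABPC1, which were also the 2 of 13 paralogs whose groups did not overlap, beside 9.79% of all genes tested.

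PABPC1, the poly(A)-binding protein of most body cells, had low normalized values of 32.1, 55.6 and 31.2 in NC and of 22.7, 17.7 and 19.7 in KD replicates 1 to 3. All 3 KD libraries lay below all NC libraries, and NC replicate 2 stood well above the rest. The log2 fold change was -0.91 (SE 0.35, 95% interval -1.64 to -0.17, adjusted p = 0.971 by limma), and -0.64 without NC replicate 2. PABPC1 has close relatives that can share its reads, so its level is uncertain.

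LSM14A, the widely used LSM14 paralog, had normalized values of 886, 595 and 816 in NC and of 887, 967 and 988 in KD replicates 1 to 3. Every KD value lay above every NC value, although KD replicate 1 and NC replicate 1 were nearly equal. The log2 fold change was 0.33 (SE 0.13, 95% interval 0.05 to 0.61, adjusted p = 0.997 by limma). It was 0.15 without NC replicate 2, the lowest library.

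The other 11 paralogs had overlapping groups. Among the CPEB proteins, which share the element with CPEB1 or bind related ones, the log2 fold change was 0.06 for CPEB2, 0.19 for CPEB3 and -0.07 for CPEB4. For the Y-box proteins it was -0.18 for YBX1 and -0.20 for YBX3, and for the cap-binding proteins -0.08 for EIF4E, 0.08 for EIF4E2 and -0.13 for EIF4E3. PATL1, the decapping activator related to PATL2, had a log2 fold change of 0.06, PABPC4 one of 0.07, and BOLL, a relative of DAZL, one of 0.44 at normalized values of 8.86 to 21.9. Leaving out 1 library moved these values but turned the sign of CPEB2 alone. YBX1 then ranged from -0.30 to -0.10, YBX3 from -0.34 to -0.092, EIF4E from -0.19 to -0.0050, EIF4E2 from 0.018 to 0.13 and EIF4E3 from -0.16 to -0.084. CPEB2 ranged from -0.027 to 0.19, CPEB3 from 0.12 to 0.28, CPEB4 from -0.12 to -0.018, PATL1 from 0.0064 to 0.099, PABPC4 from 0.037 to 0.095 and BOLL from 0.25 to 0.72. The interval of BOLL, -0.55 to 1.44, was the widest of the 13.

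**Figure D2:**
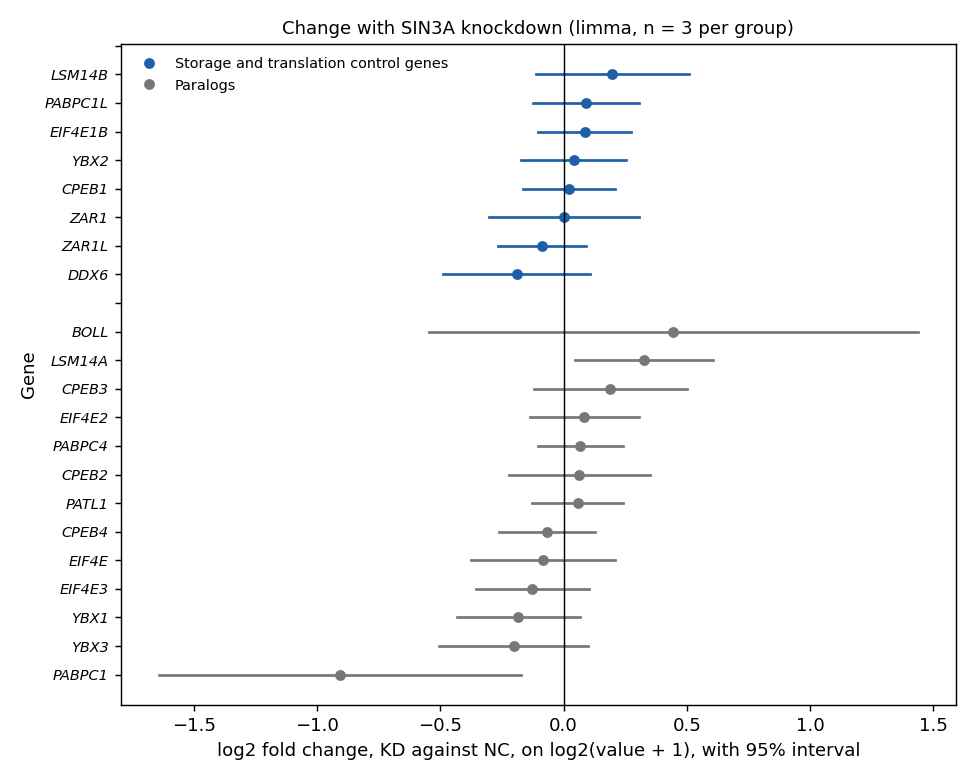
Log2 fold change of KD against NC with its 95% interval (limma, n = 3 per group) for the 8 storage and translation control genes, in blue, and their 13 paralogs, in grey. All 8 intervals of the first group cross 0 and lie between -0.49 and 0.51, while PABPC1, at -0.91, has an interval entirely below 0 and LSM14A one entirely above it.

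Members were set against a relative within each library as a ratio of levels per kilobase, with 1 added to each normalized value before division by length. The ratio of PABPC1L to PABPC1 was 75.1, 51.3 and 84.4 in NC and 133, 158 and 123 in KD replicates 1 to 3, so PABPC1L was above PABPC1 in all 6 libraries. PABPC4, the most abundant of the 13 paralogs by normalized value, was above PABPC1L in every library, at 1101 ± 44.8 per kilobase in the NC group and 1154 ± 17.0 in the KD group (SD, n = 3 each). The 3 KD ratios lay above all NC ratios, a difference of 0.998 in log2, and the exact permutation test gave p = 0.1, the smallest this design allows, with an adjusted p of 0.6 over the 6 pairs compared. With other pseudocounts the difference was 1.03 (0.1 added) or 0.785 (10 added). The ratio shares the uncertainty of the low PABPC1 values.

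EIF4E1B also exceeded EIF4E, with a ratio of 30.7 ± 3.53 in the NC group and 34.5 ± 4.59 in the KD group (SD, n = 3 each). YBX2 exceeded YBX1 less, at a ratio of 1.46 ± 0.060 in NC and 1.72 ± 0.30 in KD (SD, n = 3 each). CPEB1 to CPEB4 was 5.02 ± 0.37 in NC and 5.34 ± 0.22 in KD. This ratio rests on 1687 bases without a 3′ UTR for CPEB1 and on 7765 bases with a UTR for CPEB4. EIF4E1B and YBX2, the oocyte and germ cell forms, were above EIF4E and YBX1 in every library.

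LSM14B went the other way, with a ratio to LSM14A of 0.384 ± 0.087 in NC and 0.354 ± 0.088 in KD (SD, n = 3 each), LSM14A having a RefSeq mRNA without a 3′ UTR. ZAR1 stood at 0.238 ± 0.055 of ZAR1L in NC and 0.249 ± 0.022 in KD (SD, n = 3 each). For these 5 pairs the groups overlapped, and adjusted p values of the exact permutation tests were 0.75 or 0.8.

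The wider set of translational repressors and mRNP partners had 27 tested genes of 31 listed. By limma 0 passed an adjusted p of 0.05, against 0.159% of all genes tested. At an unadjusted p below 0.05, 1 was higher and 2 were lower in KD, 11.11% of the 27 against 4.61% of all genes tested. The groups did not overlap in 3 of the 27, beside 9.79% of all genes tested, and the median log2 fold change was 0.018. The most abundant was SAMD4B, a Smaug protein that represses mRNAs with stem-loops, at 18972 ± 1842 in NC and 20291 ± 715 in KD (SD, n = 3 each). The largest differences were in G3BP1, a stress granule protein, at -0.49 (95% interval -1.21 to 0.23), and in STAU2, a double-stranded RNA-binding transport protein, at -0.46 (95% interval -0.83 to -0.09). STAU2 had normalized values of 236, 195 and 174 in NC and 162, 123 and 155 in KD replicates 1 to 3, with no overlap.

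FXR1 and ELAVL2, the other genes at the unadjusted threshold, were named after their values were seen. FXR1, of the fragile X family, had normalized values of 4370, 4412 and 4552 in NC and 3652, 3602 and 4093 in KD replicates 1 to 3. Its KD libraries were all lower than its NC libraries, with a log2 fold change of -0.23 (95% interval -0.41 to -0.06, adjusted p = 0.904 by limma). ELAVL2, which binds AU-rich elements, had a log2 fold change of 0.29 (95% interval 0.06 to 0.53, adjusted p = 0.971 by limma), and its groups overlapped. Besides STAU2 and FXR1, the gene without overlap was EIF4EBP2, a repressor of eIF4E also named after its values were seen, with a log2 fold change of -0.26 (95% interval -0.59 to 0.07).

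EIF4ENIF1, the 4E-T protein that ties eIF4E forms to DDX6, was chosen after its values were seen for its link to the members. It had 9813 ± 808 in NC and 10322 ± 911 in KD (SD, n = 3 each), and KD differed from NC by 0.07 in log2 (95% interval -0.12 to 0.26).

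The list for cytoplasmic polyadenylation holds 14 distinct genes, TENT2 being listed under its older name PAPD4 as well. Of these, 12 were tested and 0 passed an adjusted p of 0.05 by limma, against 0.159% of all genes tested. At an unadjusted p below 0.05, 0 were higher and 1 was lower, 8.33% of the 12 against 4.61% of all genes tested. The nuclear poly(A)-binding protein PABPN1 was the most abundant, at 2337 ± 91.1 in NC and 2392 ± 126 in KD (SD, n = 3 each). TENT2, the poly(A) polymerase GLD2 that lengthens tails in the cytoplasm, had a log2 fold change of -0.28 (95% interval -0.62 to 0.05), and MSI1, the RNA-binding protein Musashi, one of 0.28 (95% interval -0.05 to 0.61). The gene at the unadjusted threshold was CPSF2, named after its values were seen, a subunit of the complex that binds the polyadenylation signal. It had a log2 fold change of -0.28 (95% interval -0.55 to -0.0027). The groups did not overlap in this 1 of the 12, beside 9.79% of all genes tested.

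Of the 17 genes of decapping and P-body decay, 16 were tested and 0 passed an adjusted p of 0.05 by limma, against 0.159% of all genes tested, with 0 at an unadjusted p below 0.05, against 4.61%. DCP2, the decapping enzyme, was the most abundant, at 4103 ± 827 in NC and 3973 ± 124 in KD (SD, n = 3 each). The largest differences were in LSM5, part of the ring that binds deadenylated ends, at -0.41 (95% interval -1.44 to 0.62), and in DCPS, the scavenger decapping enzyme, at -0.27 (95% interval -0.75 to 0.22). Mean normalized values were 28.1 in NC and 23.5 in KD for LSM5, and 74.3 and 61.8 for DCPS.

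The cytoplasmic polyadenylation element (CPE) that CPEB1 reads was searched as TTTTAT or TTTTAAT, with T for U, on the mRNA strand only, in the last 100 bases of the longest RefSeq mRNA. Of 10136 tested genes with a RefSeq 3′ UTR, 2011 (19.8%) held it, beside 16.4% of all 18712 RefSeq genes with a 3′ UTR. The median log2 fold change was 0.0082 for the 2011 genes with the element and 0.0031 for the 8125 without it.

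At an adjusted p below 0.05, 1 gene with the element was higher and 5 were lower, 0.298% of the 2011, and 5 genes without it were higher and 7 lower, 0.148% of the 8125, beside 0.159% of all genes tested. Unadjusted p values below 0.05 were found in 5.17% of genes with the element and 4.51% without it. The genes that passed were SRPK1, higher in KD, and CCNB1, LIMA1, SPRTN, TWF1 and WDR47, lower in KD, all named after their values were seen. Without the variance trend none of these 6 genes passed, and SPRTN also missed the threshold without NC replicate 1 or 3 or KD replicate 1 or 2 (adjusted p from 0.0502 to 0.0925 in these fits). With robust empirical Bayes, chosen after seeing the data, CCNB1 (adjusted p = 0.439) and WDR47 (adjusted p = 0.372) missed it. With a window of the last 50 bases, 0 were higher and 2 lower of 1128 genes with the element (0.177%), and 6 higher and 10 lower of 9008 without it (0.178%). With the last 200 bases, 1 was higher and 7 lower of 3099 genes with the element (0.258%), and 5 higher and 5 lower of 7037 without it (0.142%). The order of the shares at an unadjusted p below 0.05 turned with the window, at 4.43% with the element and 4.66% without it for 50 bases, and 5.26% and 4.36% for 200 bases. The order of the medians turned as well, at 0.014 and 0.0030 for 50 bases and 0.00072 and 0.0055 for 200 bases.

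Among the members, YBX2 alone held the element in the last 100 bases, and it had no AATAAA or ATTAAA there, the hexamers of polyadenylation signals. ZAR1, ZAR1L, EIF4E1B, LSM14B and DDX6 held such a hexamer and no CPE, PABPC1L held neither, and CPEB1 had no RefSeq 3′ UTR to search. Among the 12 paralogs with a 3′ UTR, CPEB3, PATL1, YBX1, EIF4E and PABPC4 held the element. The letters are shown for YBX2 and its paralog YBX1, for EIF4E, whose oocyte form lacks them, for PATL1, and for CCNB1, an mRNA known for CPE control, in Sscrofa11.1 and read 5′ to 3′ along the mRNA. Capitals mark the element and, in YBX1, an AATAAA hexamer close behind it, which was not shown to be the signal of this mRNA end.
YBX2: cctctgaagccaTTTTATgaaccgtcatgt
YBX1: taagaacctcatTTTTAATttgtAATAAAa
EIF4E: tcaaaaggataaTTTTAATttactaaggca
PATL1: ctaaatttacatTTTTATagggtattgtaa
CCNB1: gaaaaatgagaaTTTTAATttatattcaaa

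The windows lie at chr12:52635427-52635456 (minus strand) for YBX2, at chr6:168716860-168716889 (minus strand) for YBX1 and at chr8:121464387-121464416 (plus strand) for EIF4E. Those of PATL1 and CCNB1 lie at chr2:11857641-11857670 and chr16:47348300-47348329, both on the plus strand. All 5 are in 3′ UTRs, with 56, 89, 62, 41 and 67 bases from the element to the end of the mRNA, in the order shown. A match describes letters in the annotation and does not show that CPEB1 binds there. CCNB1 had normalized values of 8891, 9039 and 7729 in NC and 2113, 974 and 2171 in KD replicates 1 to 3 and fell with a log2 fold change of -2.37 (adjusted p = 1.36e-05 by limma, and 0.423 without the variance trend, within a range of 1.49e-09 to 0.439 over the alternatives run), whereas YBX2, YBX1, EIF4E and PATL1 did not pass the test.

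The identity of the samples was checked by marker lists. Of 12 oocyte and cleavage embryo markers, 11 were in the table, and their summed values were 105841, 105624 and 95464 in NC and 107820, 106126 and 95524 in KD replicates 1 to 3. KD replicate 3 was the lowest library for 6 of the 11 and the highest for 0. The 6 were ZP2, ZP3, ZP4, OOEP, H1FOO and FIGLA, named after their values were seen, with ZP2 at 1070 against 1231 to 2178 in the other libraries and H1FOO at 18001 against 18991 to 24453. The most abundant was WEE2, the oocyte kinase that inhibits CDK1, at 43196 ± 2955 in NC and 44218 ± 3226 in KD (SD, n = 3 each). The largest differences were those of BTG4, an adaptor for deadenylation of maternal mRNA, at -0.18 (95% interval -0.38 to 0.02), and of BMP15, an oocyte growth factor, at 0.13 (95% interval -0.05 to 0.31).

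Of 16 cumulus and granulosa markers, 14 were in the table and 5 were tested, with sums of 997, 870 and 865 in NC and 960, 830 and 880 in KD, mostly from VCAN at a mean of 799. NR5A2 differed by 0.76 (95% interval -0.35 to 1.87) and INHBA by -0.66 (95% interval -1.72 to 0.40) at normalized values of at most 17.7. The groups did not overlap in NR5A2, 1 of the 5 tested, beside 9.79% of all genes tested. KD replicate 3 and NC replicate 1 were each the highest library for 4 of the 14. NC replicate 1 was also the lowest library, ties at 0 included, for 5 of the 14. The 4 markers highest in KD replicate 3 are named after their values were seen. In it CYP19A1 had a value of 10.7, CYP11A1 14.2, FOXL2 13.1 and STAR 23.4, against at most 9.27, 5.22, 2.90 and 20.6 in the other libraries. Other markers were low in KD replicate 3, such as INHBA at 7.69 and, also named after their values were seen, HAS2 at 2.20 and PTX3 at 0. PTX3 was at 0 in all 3 KD libraries. The sum of the list in KD replicate 3 lay within the range of the other libraries. Because VCAN made up most of that sum, it does not show whether the low markers rose in this library.

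The 8 epithelial and immune markers, of which 3 were tested, summed to 732, 570 and 611 in NC and 625, 847 and 661 in KD, mostly from EPCAM at a mean of 577, with a log2 fold change of 0.27 (95% interval -0.02 to 0.55). HBB, a red cell gene, had 74.9 in NC replicate 1 and at most 1.96 in the others, and a log2 fold change of -2.03 (95% interval -4.99 to 0.92). NC replicate 1 was the highest library for 3 of these 8 markers, HBB and, named after their values were seen, PTPRC at 13.9 and CD14 at 13.6. It was the lowest library for 2 of these markers. Among the 8 storage and translation control genes, NC replicate 1 was the lowest library for 3. By limma, 0 genes of the 3 marker lists passed an adjusted p of 0.05 and 0 had an unadjusted p below 0.05, against 0.159% and 4.61% of all genes tested.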

How the data were processed

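The authors assigned reads of 6 poly(A)-selected libraries to Sscrofa11.1 transcripts with Salmon 0.14.1 and normalized them with DESeq2, and the deposited values are a normalized signal per gene, not whole counts. Columns were matched to samples by title. Of 3575 identifiers without a name, 823 were named through an identifier table. Genes with a mean of at least 10 were tested on log2(value + 1) with limma 3.58.1 in R 4.3.3 (variance trend, Benjamini-Hochberg adjustment). The code was also run on counts simulated with the same dispersion for every gene, which does not check the variance trend in these data. Single values and ratios were compared by exact permutation tests (scipy 1.17.1, two-sided). Python 3.11.15, numpy 2.4.6, pandas 2.3.3, pysam 0.24.0 and matplotlib 3.10.9 were used. Positions, lengths and 3′ UTRs came from RefSeq on Sscrofa11.1. Depth was estimated from the spacing of low values, of which 53.2% to 70.7% lay within 0.05 reads of a whole read, so no count test was run. Members and lists were chosen with earlier results of these data known. Named genes are every member found, its paralogs, SIN3A and, in each other list, every gene called, otherwise the 2 with the largest absolute log2 fold change and the most abundant. CCNB1 and the genes said to be named after their values were seen fall outside this rule. Spike-in mRNAs were not used here. Alternatives were other pseudocounts, filters, scalings, variance models, lengths and CPE windows, a replicate block, and leaving out each library.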

Additional observations from a re-analysis of the deposited data

How the results depend on the processing

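None of the 8 members passed an adjusted p of 0.05 in limma under any of the 15 alternatives, and their smallest adjusted p was 0.564. Without the variance trend 0 of all genes passed, SIN3A included, so that alternative adds nothing about the members. Of 120 comparisons of a member with an alternative, 116 kept the direction and 4, each with a library left out, reversed. The filters, variance models and replicate block leave a fold change as it is, so their comparisons could not reverse. With libraries left out in turn, CPEB1 had log2 fold changes of -0.019 to 0.081, YBX2 of -0.084 to 0.105, ZAR1 of -0.143 to 0.121 and the paralog CPEB2 of -0.027 to 0.192. The members that kept their direction ranged from 0.022 to 0.181 (PABPC1L), 0.013 to 0.148 (EIF4E1B), 0.060 to 0.394 (LSM14B), -0.292 to -0.097 (DDX6) and -0.137 to -0.063 (ZAR1L). The log2 ratio, KD minus NC, then ranged from -0.269 to 0.0998 for LSM14B to LSM14A and from -0.077 to 0.258 for ZAR1 to ZAR1L. The other ratios kept their direction, at 0.11 to 0.37 for YBX2 to YBX1 and 0.071 to 0.26 for EIF4E1B to EIF4E. The range was 0.036 to 0.14 for CPEB1 to CPEB4 and 0.79 to 1.15 for PABPC1L to PABPC1. The cause was not tested.

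The count of genes past the adjusted p was 19, and 0 without the variance trend, where 622 had an unadjusted p below 0.05. It ranged from 11 to 19 with a library left out, with 11 without KD replicate 1 or 2 and 12 without NC replicate 2 or 3. SIN3A had -3.81 without the variance trend (adjusted p = 0.423) and -3.81 with robust empirical Bayes, chosen after seeing the data (adjusted p = 0.469), and -4.20 to -3.22 with a library left out. The cause was not tested. CCNB1 kept its direction, at -2.57 to -1.99 with a library left out, and its adjusted p was 0.423 without the variance trend and 0.439 with robust empirical Bayes. With the replicate block 26 genes passed and 0 members did. Libraries with the same number correlated at 0.109, 0.111 and 0.087 after subtraction of group means, and those with different numbers at -0.083 to -0.021. Of the 6 libraries, 6 correlated best with their own number. The main fit took no pairs because the methods of the study name no block. Whether the numbers mark shared batches was not tested. With the block, the SIN3A adjusted p was 3.19e-11.

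PABPC1 and BOLL were not tested at a mean of at least 100. Each member had about 198 reads or more in every library, and PABPC1 about 17.9 and BOLL about 6.08 in the library with the fewest.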
